A study of Mus musculus with 120 samples.

Results

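Glutamate and GABA receptor genes were followed in dorsal root ganglia (DRG) and plantar skin of mice given paclitaxel or vehicle. The genes are the 49 of 52276 named genes of each count table whose symbols follow the pattern of the AMPA, kainate, delta, NMDA and metabotropic glutamate receptors or of the GABA-A and GABA-B receptors. Measured values played no part in that choice. The pattern took 4 AMPA, 5 kainate, 2 delta, 7 NMDA, 8 metabotropic glutamate, 19 GABA-A and 2 GABA-B genes. It also took Grid2ip, which encodes a scaffold that binds a delta receptor, and Grin1os, an RNA transcribed opposite to Grin1, and these 2 are not receptors.

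The tested mice received paclitaxel, a chemotherapy drug that stabilises microtubules, by intraperitoneal injection at 4 mg/kg, on a schedule of days 0, 2, 4 and 6, and their controls received vehicle. Mice of day 4 were sampled before the dose of day 6. All were male C57B6/J mice, 6 weeks old when injected, and DRG and skin were taken from 4 mice per treatment on each of days 4, 7, 11 and 23. This gives 32 libraries per tissue, 16 from paclitaxel mice and 16 from vehicle mice. The labels name no transgene, and DRG is whole ganglion tissue with glia and vessels as well as neurons. The comparison asked whether the drug changed the expression of these receptors at any stage between the onset of pain and recovery.

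Glutamate is the main transmitter that sensory neurons release in the spinal cord, where ionotropic receptors (AMPA, kainate, NMDA) open cation channels and metabotropic receptors act through G proteins. GABA-A receptors are chloride channels built of 5 subunits, and GABA-B receptors are G protein-coupled dimers of the products of Gabbr1 and Gabbr2. Sensory neurons keep much chloride inside, so that GABA depolarises them. Receptors on their central terminals control how much transmitter is released, and some lie on peripheral endings in the skin.

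Promoter sequences of 300 bases (250 before and 50 after the start, RefSeq, GRCm38.p6) were at hand for 34 of the 49 genes. Shown here are those of both GABA-B receptor genes, which DRG expressed together and skin did not, and of Gabrp, which skin expressed and DRG nearly lacked. Capitals mark each CG. The window of Gabbr1 is chr17:37045716-37046015 on the plus strand, that of Gabbr2 is chr4:46991665-46991964 on the minus strand and that of Gabrp is chr11:33578908-33579207 on the minus strand.
Gabbr1: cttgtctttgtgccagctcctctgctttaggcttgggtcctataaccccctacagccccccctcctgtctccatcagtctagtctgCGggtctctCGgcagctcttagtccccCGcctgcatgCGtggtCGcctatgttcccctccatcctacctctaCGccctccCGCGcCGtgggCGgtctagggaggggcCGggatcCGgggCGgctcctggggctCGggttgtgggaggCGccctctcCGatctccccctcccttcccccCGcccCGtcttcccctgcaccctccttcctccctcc
Gabbr2: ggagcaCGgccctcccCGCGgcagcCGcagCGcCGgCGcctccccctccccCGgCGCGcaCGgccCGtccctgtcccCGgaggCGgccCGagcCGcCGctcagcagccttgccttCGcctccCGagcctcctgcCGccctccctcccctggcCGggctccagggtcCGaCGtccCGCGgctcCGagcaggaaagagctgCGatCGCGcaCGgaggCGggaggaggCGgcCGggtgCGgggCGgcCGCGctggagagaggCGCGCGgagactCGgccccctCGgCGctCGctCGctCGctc
Gabrp: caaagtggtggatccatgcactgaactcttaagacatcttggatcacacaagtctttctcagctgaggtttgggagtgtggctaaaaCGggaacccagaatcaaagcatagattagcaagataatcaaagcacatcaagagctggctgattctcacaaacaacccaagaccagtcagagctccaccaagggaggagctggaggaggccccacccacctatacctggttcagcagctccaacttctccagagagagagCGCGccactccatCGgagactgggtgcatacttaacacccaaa
The window held 18 CG for Gabbr1, 46 for Gabbr2 and 4 for Gabrp, against a median of 7 over all 32851 promoters of that length and 12.5 over the 42 promoters of these genes. The GC box GGGCGG, searched on both strands, was found in 21 of the 42 and in 35.7% of all promoters, and TATAAA in 4 of the 42 and in 13.6% of all. Such matches describe the letters only.

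Libraries held 22146536 to 52904112 counts in DRG and 24114230 to 63872693 in skin. Levels are given in TMM-normalised CPM (counts scaled to a common library size), and where genes are compared with each other they are divided by the length of the gene's exons in kb. In DRG, 3 libraries stood apart, those of paclitaxel mouse 09 (day 4) and of vehicle mice 34 and 35 (day 11). Mitochondrial genes took 1.80%, 1.77% and 4.47% of their counts, against 5.17 to 10.1% in the other 29. Their list of 20 sensory neuron genes summed to 25280, 27410 and 23380 CPM, against 12040 to 17740 CPM in the others. Their list of 10 Schwann cell genes summed to 6850, 8344 and 11940 CPM, against 11870 to 22710 CPM. The 16 skeletal muscle genes also varied in DRG. They summed to 74.8 to 1073 CPM in paclitaxel mice and 60.4 to 88.5 CPM in vehicle mice on day 7, and to 68.6 to 9183 CPM in paclitaxel mice and 68.2 to 776.8 CPM in vehicle mice on day 11, and their part in the DRG results was not tested. In addition, 1 of the 2 sequencing runs of DRG mouse 09 is labelled with another group, vehicle on day 23, and the authors combined both runs. The sensory neuron list was present in every DRG library and 10 keratinocyte genes summed to 56130 to 114700 CPM in skin, so both tissues carried the markers of their labels.

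In DRG, 24 of the 49 genes lay above 1 CPM per kb in vehicle mice. The highest was Gabbr1, then the kainate receptor subunit Grik1, then Gabbr2. Per kb, Gabbr1 averaged 63.1 ± 6.86 CPM in paclitaxel mice and 63.9 ± 10.1 CPM in vehicle mice (SD, n = 16 each). Grik1 averaged 49.1 ± 8.001 CPM per kb in paclitaxel mice and 49.7 ± 8.78 CPM per kb in vehicle mice. Gabbr2 averaged 37.9 ± 5.54 CPM per kb in paclitaxel mice and 37.8 ± 6.82 CPM per kb in vehicle mice. Gabbr1 lay above Gabbr2 in all 16 paclitaxel and all 16 vehicle mice.

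**Figure D1:**
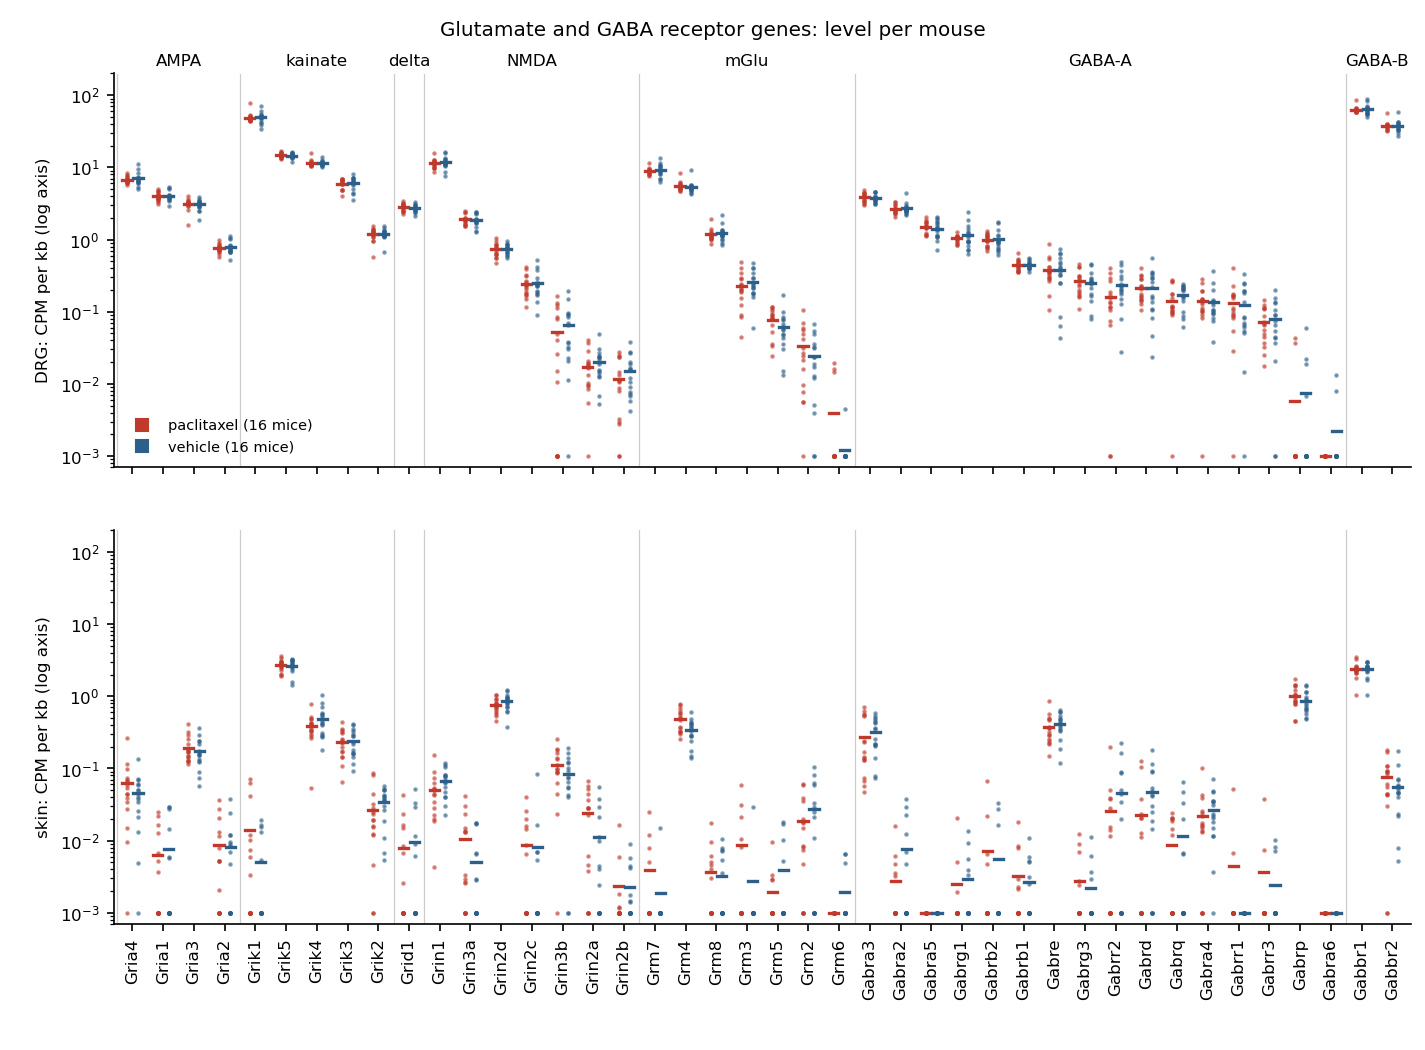
Level of receptor genes in DRG (top) and skin (bottom), in CPM per kb of exon on a log axis, with 1 point per mouse and a bar at the mean. Paclitaxel mice are left of vehicle mice and values under the axis are drawn on its bottom line, the treatments overlap for each abundant gene, Gabbr1 and Grik1 are highest in DRG, and Grik5 and Gabbr1 are highest in skin.

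Within each class a few subunits made up most of the RNA. Of the summed AMPA level per kb in DRG, Gria4 took 46.2% in paclitaxel mice and 46.7% in vehicle mice. Gria2, whose product keeps calcium out of AMPA channels, took 5.22% in paclitaxel mice and 5.26% in vehicle mice. That share depends on the division by length, since Gria2 has 15.5 kb of exon, against 6.04 to 9.86 kb for the others. Without division Gria2 was still the lowest of the class, at 11.9 CPM in paclitaxel mice and 12.2 CPM in vehicle mice. Gria1 had 24.1 and 24.5 CPM. Gria4 lay above Gria1 in all 16 mice of each treatment, and Gria1 above Gria3 in 14 of 16 paclitaxel mice and 15 of 16 vehicle mice. Without division by length, Gria3 was above Gria1, so that neighbouring pair is not settled by these data.

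Of the kainate genes, Grik1 took 59.1% of the class in paclitaxel mice and 59.4% in vehicle mice. The subunits that need a partner to form a channel, Grik5 and Grik4, followed with 18.2% and 13.9% in paclitaxel mice and 17.7% and 13.9% in vehicle mice. Grik2 took 1.47% in each treatment. Grik1 lay above Grik5 in every mouse, while Grik5 lay above Grik4 in 15 of 16 mice of each treatment.

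Grin1, the subunit that every NMDA receptor holds, took 79.2% of its class in paclitaxel mice and 79.8% in vehicle mice. Grin3a followed with 13.3% in paclitaxel mice and 12.6% in vehicle mice, and Grin2d, a glutamate-binding subunit, with 5.19% in paclitaxel mice and 5.18% in vehicle mice. Grin2a and Grin2b, the glutamate-binding subunits common in the forebrain, took 0.122% and 0.085% in paclitaxel mice and 0.138% and 0.105% in vehicle mice. The exons of Grin1 and Grin1os overlap, over 13.5% of the exon bases of Grin1 and 45.2% of those of Grin1os. The strand setting of the counting is not given in the sources used here. Whether reads of the overlap were counted for either gene or left out is therefore not known. The same holds for 32.1% of the exon bases of Grin3b, which lie opposite to Tmem259.

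Among the metabotropic receptors, the presynaptic G protein-coupled receptors Grm7 and Grm4 took 55.9% and 34.6% in paclitaxel mice and 56.9% and 33.4% in vehicle mice. Grm5, which acts through phospholipase C, stood at 0.799 CPM in paclitaxel mice and at 0.635 CPM in vehicle mice. Grm2 and Grm6 were too low to be tested. The delta receptor gene Grid1 averaged 2.81 ± 0.323 CPM per kb in paclitaxel mice and 2.72 ± 0.307 CPM per kb in vehicle mice (SD, n = 16 each).

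Among the GABA-A genes of DRG, the alpha subunits Gabra3, Gabra2 and Gabra5 took 9.99%, 6.83% and 3.91% of the class per kb in paclitaxel mice and 9.52%, 6.81% and 3.55% in vehicle mice. Per kb, Gabra3 lay above Gabra2 in 15 of 16 paclitaxel mice and all 16 vehicle mice, and Gabra2 lay above Gabra5 in every mouse. Without division by length Gabra2 was above Gabra3, at 20.3 against 15.2 CPM in paclitaxel mice and 20.7 against 14.7 CPM in vehicle mice. The order of Gabra3 and Gabra2 is thus not settled by these data. The gamma subunit Gabrg1 took 2.68% in paclitaxel mice and 2.84% in vehicle mice. Many GABA-A genes lie in clusters, and genes of 1 cluster stood at different levels. On chromosome 5 (70751047 to 72149037, GRCm38), Gabra2 and Gabrg1 had 2.71 and 1.16 CPM per kb in vehicle mice, while Gabrb1 and Gabra4 had 0.446 and 0.138. On chromosome X (72255999 to 72842602), Gabra3 had 3.75 CPM per kb in vehicle mice, against 0.376 for Gabre and 0.168 for Gabrq.

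Paclitaxel changed none of these genes in DRG past the threshold of an adjusted p of 0.05. Of the 45 members that passed edgeR's filter on low counts, 0 were called on day 4, 7, 11 or 23, over the days together, for a difference of effect between days, or between days in vehicle mice. Of all 18709 genes tested, edgeR called 0.0% on day 4, 0.0107% on day 7, 0.0% on day 11, 0.0214% on day 23 and 0.139% over the days. It called 0.0% for the difference between days and 0.0% in vehicle mice across days. DESeq2 and limma also called 0 members in each of these comparisons. Gabra6, Gabrp, Grm2 and Grm6 were not tested.

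Without adjustment, 0 members had p under 0.05 on days 4 and 7 and over the days, 6 on day 11 and 2 on day 23, where 5.44%, 4.28%, 4.88%, 13.4% and 4.88% of all genes did. For the difference between days there were 3 members, against 8.89% of all genes, and for vehicle mice across days 7, against 11.4% of all genes. The median log2 fold change (paclitaxel over vehicle) of the 45 over the days was −0.0056, against −0.0066 for all genes, with 20 above 0 and 25 below. A p that misses the threshold does not show that nothing changed, so the intervals matter. The 95% interval over the days lay within 1.5-fold either way for 31 of the 45 members, and for 75.6% of all genes tested. These 31 include all 4 AMPA, all 5 kainate, both delta and both GABA-B genes, 4 of 7 NMDA, 3 of 6 metabotropic and 10 of 17 GABA-A genes.

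**Figure D2:**
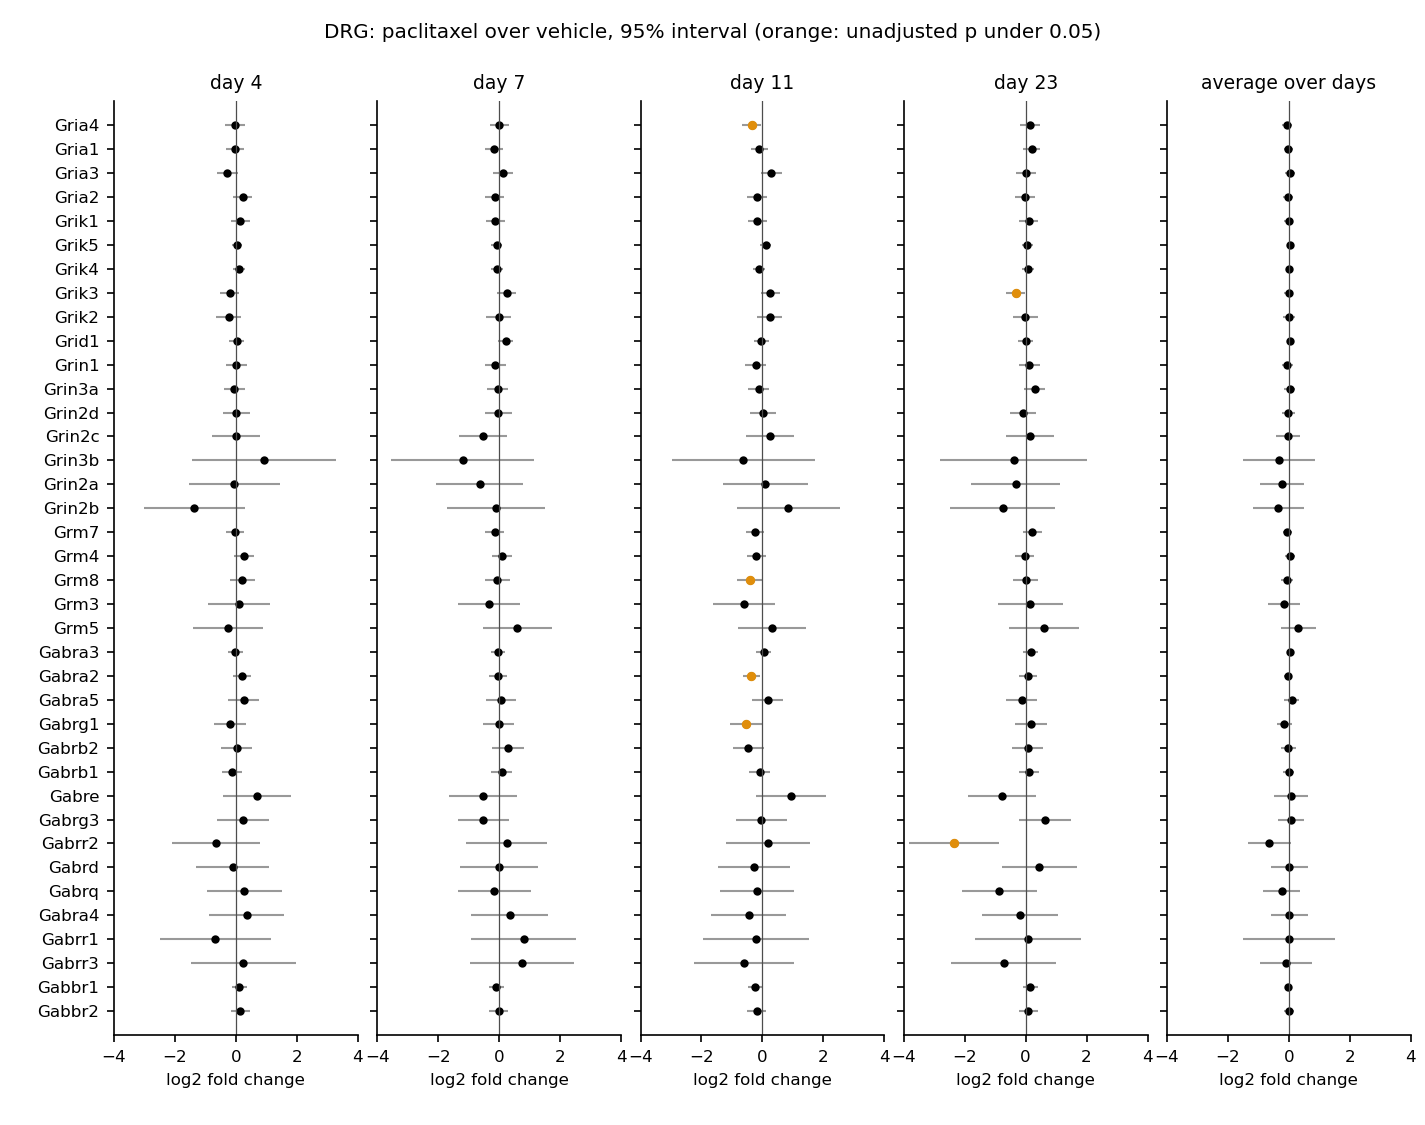
Log2 fold change of paclitaxel over vehicle in DRG with its 95% interval for receptor genes tested, on each day (4 against 4 mice) and averaged over the days. Orange points had an unadjusted p under 0.05 and none passed after adjustment, and intervals are narrow for the abundant genes at the top of each class and wide for rare ones.

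The most abundant genes show how close the treatments were. Gabbr1 ran from 450.1 to 675.9 CPM in paclitaxel mice (median 477.2) and from 385.9 to 684.7 CPM in vehicle mice (median 483.1), and its fold over the days was 0.991 (95% interval 0.911 to 1.08). Grik1 ran from 292.6 to 516.5 CPM in paclitaxel mice (median 308.0) and from 228.1 to 478.8 CPM in vehicle mice (median 333.7), with a fold of 0.992 (0.8904 to 1.105). The highest mouse was 09 among paclitaxel mice and 34 among vehicle mice for both genes, and the ranges overlapped.

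For Grin1 the levels were 83.9 to 154.3 CPM in paclitaxel mice (median 110.2) and 74.2 to 157.5 CPM in vehicle mice (median 111.8), with a fold of 0.965 (0.856 to 1.09). Gria4 had 36.3 to 52.2 CPM in paclitaxel mice (median 41.85) and 31.3 to 70.7 CPM in vehicle mice (median 41.95), with a fold of 0.963 (0.863 to 1.07). Their vehicle ranges were the wider ones. Grm7 had 44.8 to 68.2 CPM in paclitaxel mice (median 52.2) and 37.2 to 79.95 CPM in vehicle mice (median 53.5), with a fold of 0.969 (0.873 to 1.07). Grid1 had 13.6 to 20.2 CPM in paclitaxel mice and 12.6 to 19.5 CPM in vehicle mice, with a fold of 1.04 (0.953 to 1.13). In each of these genes the 2 treatments overlapped.

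The members with the smallest p over the days did not reach the threshold either. Gabrr2, a rho subunit known from the retina, was at −0.64 ± 0.34 (log2 fold change ± SE) and Gabrg1 at −0.15 ± 0.13, each with an adjusted p of 1.0 in edgeR. For Gabrg1 the direction turned without mice 09, 34 and 35, to 0.054.

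On day 4 the smallest p was that of the AMPA subunit Gria3. It had 15.6, 36.4, 30.6 and 31.4 CPM in paclitaxel mice and 32.5, 37.8, 33.9 and 33.8 CPM in vehicle mice, a log2 fold change of −0.28 (95% interval −0.61 to 0.05, adjusted p 0.899). The low paclitaxel mouse was 09, and the groups overlapped. On day 7 it was Grid1, with 17.6, 18.3, 16.96 and 14.4 CPM in paclitaxel mice and 14.3, 12.6, 13.9 and 16.9 CPM in vehicle mice, a log2 fold change of 0.22 (−0.02 to 0.46, adjusted p 0.994). The groups overlapped, with 1 low paclitaxel mouse and 1 high vehicle mouse.

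The 6 members with an unadjusted p under 0.05 on day 11 were all lower in paclitaxel mice, where 6.89% of all genes were lower at that p. Among them were the GABA-A subunits Gabra2 and Gabrg1, the AMPA subunit Gria4 and the metabotropic receptor Grm8, and the smallest adjusted p of any member was 0.282. Gabra2 had 19.7, 20.1, 15.9 and 20.1 CPM in paclitaxel mice and 19.7, 33.3, 24.8 and 19.4 CPM in vehicle mice, a log2 fold change of −0.36 (−0.65 to −0.07, adjusted p 0.304). Grm8, which like Grm4 and Grm7 sits mostly on nerve terminals, had 10.4, 14.0, 8.62 and 10.9 CPM in paclitaxel mice and 11.4, 21.3, 17.03 and 8.36 CPM in vehicle mice, a log2 fold change of −0.41 (adjusted p 0.369). The high values were those of vehicle mice 34 and 35, and the other vehicle mice lay near the paclitaxel mice.

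Gabrg1 had 8.48, 8.37, 7.85 and 8.84 CPM in paclitaxel mice and 7.58, 14.8, 18.9 and 7.35 CPM in vehicle mice, a log2 fold change of −0.54. Again 34 and 35 stood above all paclitaxel mice and the other vehicle mice stood below them. Gria4 on that day had 37.8, 39.7, 39.8 and 42.9 CPM in paclitaxel mice and 39.4, 60.5, 70.7 and 33.3 CPM in vehicle mice, a log2 fold change of −0.35. Without mice 09, 34 and 35, a setting chosen after seeing the data, the log2 fold change was −0.04 for Gabra2. For Gabrg1, Gria4 and Grm8 its direction turned, to 0.17, 0.14 and 0.15. The median over the members on day 11 was −0.114 with all mice, against −0.0148 for all genes, and 0.093 without those 3. The median of all genes without those 3 is not given here. That setting left mice 33 and 36 as the only vehicle mice of day 11.

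Among the members themselves, mice 09 and 34 both stood above all of the other 29 mice (35 aside) for 12 of 45, where 14.2% of all genes did. Among these 12 were Gabbr1, Gabbr2, Grik1, Grik4, Grin1, Grm3, Grm4, Grm7 and Grm8. Both stood below all of the other 29 for Gria3, Grik2 and Grik3, where 12.7% of all genes did. This is a description of 2 libraries picked for their composition, with no test.

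Grik1 was at 516.5 CPM in mouse 09, 478.8 in mouse 34 and 361.4 in mouse 35, and at 228.1 to 403.8 CPM in the other 29. Gria3 was at 15.6 CPM in mouse 09, 18.4 in mouse 34 and 24.3 in mouse 35, and at 24.6 to 39.2 CPM in the other 29. The receptor genes thus did not all move one way with the neuron list: the 2 kainate subunits Grik2 and Grik3 were low where Grik1 and Grik4 were high. In bulk tissue, more cells of a type and more RNA per cell cannot be told apart.

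**Figure D3:**
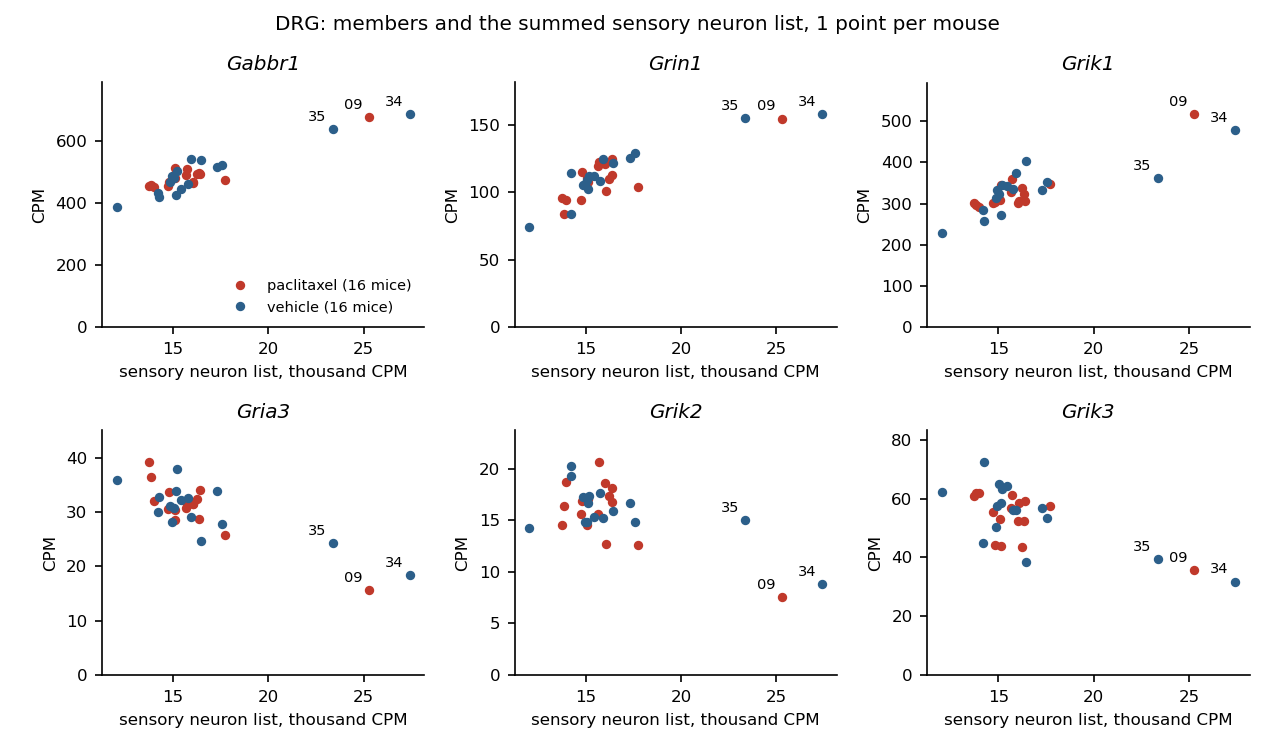
CPM of 6 members in DRG against the summed CPM of the 20 sensory neuron genes, with 1 point per mouse and mice 09, 34 and 35 numbered. Gabbr1, Grin1 and Grik1 are high in mice 09 and 34 and Gria3, Grik2 and Grik3 low, while the treatments overlap among the other 29 mice.

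On day 23, Gabrr2 had 0.221, 0.243, 0 and 0.136 CPM in paclitaxel mice (6, 7, 0 and 5 counts) and 1.02, 0.436, 0.765 and 0.934 CPM in vehicle mice (22, 19, 22 and 25 counts). All paclitaxel mice were below all vehicle mice, with a log2 fold change of −2.35 (−3.82 to −0.88, unadjusted p 0.00271, adjusted p 0.603 in edgeR). On days 4, 7 and 11 its groups overlapped, at 0.201 ± 0.167, 0.606 ± 0.252 and 0.398 ± 0.155 CPM in paclitaxel mice and 0.325 ± 0.137, 0.509 ± 0.111 and 0.352 ± 0.229 CPM in vehicle mice (SD, n = 4 each). The difference of effect between days had an adjusted p of 0.549.

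Grik3 differed in sign between days 7 and 23. On day 7 it had 61.3, 59.1, 58.5 and 57.5 CPM in paclitaxel mice and 53.2, 38.5, 50.5 and 56.1 CPM in vehicle mice, all paclitaxel mice above all vehicle mice. On day 23 it had 60.9, 44.1, 53.1 and 52.5 CPM in paclitaxel mice and 72.4, 64.3, 64.8 and 62.2 CPM in vehicle mice, all paclitaxel mice below. Its paclitaxel means on days 4 to 23 were 51.2, 59.1, 51.5 and 52.6 CPM and its vehicle means 58.7, 49.6, 43.3 and 66.0 CPM, so the vehicle means spanned the wider range. The low vehicle mean of day 11 holds mice 34 and 35, at 31.7 and 39.3 CPM, against 57.5 and 44.7 CPM in mice 33 and 36. The paclitaxel mean of day 4 holds mouse 09, at 35.6 CPM. Mice 09, 34 and 35, whose libraries stood apart, were kept in the fit behind the next p-values. The difference of effect between days had an unadjusted p of 0.0187 (adjusted p 0.511), and the vehicle mice across days one of 0.00228 (adjusted p 0.392).

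Few members in DRG had groups without overlap. Paclitaxel mice lay above all vehicle mice for 0, 1, 0 and 1 of the 45 members on days 4, 7, 11 and 23 (Grik3 on day 7), and for 1.36%, 2.02%, 2.28% and 2.23% of all genes. They lay below for 0, 0, 0 and 2 members (Gabrr2 and Grik3 on day 23), and for 1.79%, 2.43%, 1.77% and 2.8% of all genes.

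In skin, few of these receptors were abundant. Of the 49 genes, 2 were above 1 CPM per kb in vehicle mice, Grik5 and Gabbr1, and 20 passed the filter. Gabra5 and Gabra6 had 0 counts in all 32 libraries, which allows up to 0.00282 CPM over all libraries (3 counts, counting error only). The tissues were not tested against each other, since their tables were normalised separately.

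Per kb, Grik5 averaged 2.73 ± 0.505 CPM in paclitaxel mice and 2.66 ± 0.558 CPM in vehicle mice, and Gabbr1 averaged 2.37 ± 0.556 CPM in paclitaxel mice and 2.37 ± 0.514 CPM in vehicle mice (SD, n = 16 each). Gabbr2, the GABA-B partner of Gabbr1, averaged 0.0753 ± 0.0517 CPM per kb in paclitaxel skin and 0.0555 ± 0.0408 CPM per kb in vehicle skin. Gabbr1 thus made up 97.0% of the pair in paclitaxel skin and 97.6% in vehicle skin, where it made up 62.5% in paclitaxel DRG and 62.9% in vehicle DRG. Grik1, second in DRG, had 76 counts in all skin libraries together and was not tested there.

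Gabrp, the pi subunit of GABA-A receptors known from epithelia, was the most abundant GABA-A gene of skin, at 1.02 ± 0.356 CPM per kb in paclitaxel mice and 0.853 ± 0.296 CPM per kb in vehicle mice. In DRG it had 20 counts in 32 libraries. In skin its level ran from 1.54 to 5.93 CPM in paclitaxel mice (median 3.27) and from 1.65 to 4.85 CPM in vehicle mice (median 2.66). Those ranges overlapped, and its log2 fold change over the days was 0.25 (95% interval −0.13 to 0.64, adjusted p 0.501). Grin2d led the NMDA genes of skin with 78.3% of the class per kb in paclitaxel mice and 82.5% in vehicle mice. Grin3b took 11.2% in paclitaxel mice and 7.9% in vehicle mice. Grin1 took 5.74% in paclitaxel mice and 7.01% in vehicle mice, but was above Grin3b without division by length. Grin1os, whose exons overlap those of Grin1, had 2.04 CPM in paclitaxel skin and 1.915 CPM in vehicle skin, against 0.486 and 0.66 CPM for Grin1. How reads of the overlap were counted is not known.

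The metabotropic receptor Grm4 (chr17:27422387-27521403, minus strand, GRCm38), which lowers cyclic AMP, was the 1 member of 20 that passed the threshold in skin, over the days. Of all 18578 genes, 5.38% passed in that comparison. Grm4 was 1.47-fold higher in paclitaxel than in vehicle skin, with a log2 fold change of 0.55 ± 0.15 (SE; 95% interval 0.24 to 0.87, adjusted p 0.0299). On day 11 it had 3.01, 2.14, 3.40 and 3.51 CPM in paclitaxel mice and 1.67, 0.838, 1.70 and 1.72 CPM in vehicle mice, with all paclitaxel mice above all vehicle mice (log2 fold change 1.02, adjusted p 0.185).

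On day 7 Grm4 had 4.71, 4.56, 1.54 and 4.17 CPM in paclitaxel mice and 2.94, 2.64, 2.27 and 1.98 CPM in vehicle mice, 3 paclitaxel mice above and 1 below all vehicle mice. On day 23 it had 1.78, 1.92, 1.93 and 2.25 CPM in paclitaxel mice and 2.15, 1.05, 1.42 and 0.887 CPM in vehicle mice. On day 4 it had 3.12, 2.77, 3.73 and 2.01 CPM in paclitaxel mice and 2.54, 3.67, 2.38 and 2.49 CPM in vehicle mice. The groups overlapped on days 4 and 23, and the difference of effect between days had an adjusted p of 0.63. Vehicle mice of day 11 lay below all vehicle mice of days 4 and 7, which had 1.98 to 3.67 CPM. The paclitaxel mice of day 11 lay within that range. Across days, the vehicle mice had an unadjusted p of 0.00466 in edgeR (adjusted p 0.118).

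The call of Grm4 was close to the threshold. It was lost with no filter on low counts (adjusted p 0.063), with the skeletal muscle list as a covariate (0.0544) and without mouse 07, 11, 20, 25, 26 or 28 (at most 0.0562), while the log2 fold change stayed between 0.505 and 0.65 in every fit run over the days. In DRG, Grm4 had a log2 fold change over the days of 0.03 (adjusted p 1.0). The tissue content of skin samples varied between mice. The 16 muscle genes summed to 14580 to 29520 CPM in paclitaxel mice and 821.2 to 25610 CPM in vehicle mice on day 4, and to 19340 to 36290 CPM in paclitaxel mice and 53.2 to 53840 CPM in vehicle mice on day 23. The 20 sensory neuron genes summed to 524.5 to 736.5 CPM in paclitaxel mice and 138.6 to 791.7 CPM in vehicle mice on day 4, and to 576.7 to 1011 CPM in paclitaxel mice and 118.5 to 1406 CPM in vehicle mice on day 23. Pvalb belongs to both lists. In skin it ran from 0.719 to 1284 CPM, with means of 285.2 CPM in paclitaxel mice and 184.5 CPM in vehicle mice. The neuron list in skin, as a sum or as a covariate, is thus not separate from the muscle list. With the sensory neuron list as a covariate the log2 fold change of Grm4 was 0.65 (adjusted p 0.0327).

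Gabra3, a GABA-A alpha subunit, had the smallest p on days 7 and 11 in skin. On day 7 it had 0.656, 0.510, 0.549 and 0.289 CPM in paclitaxel mice and 1.38, 2.11, 1.74 and 0.856 CPM in vehicle mice, with all paclitaxel mice below (log2 fold change −1.58, adjusted p 0.633). On day 11 it had 0.513, 0.183, 0.260 and 0.224 CPM in paclitaxel mice and 0.836, 1.85, 1.96 and 0.308 CPM in vehicle mice, with 1 vehicle mouse inside the paclitaxel range (−2.10, 95% interval −3.29 to −0.91, adjusted p 0.127). DESeq2 called it on day 11 (adjusted p 0.0334).

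On days 4 and 23 the log2 fold changes of Gabra3 were positive, 0.64 and 0.70, with intervals that held 0. On day 4 it had 2.13, 0.922, 2.49 and 2.80 CPM in paclitaxel mice and 0.801, 0.542, 2.29 and 1.68 CPM in vehicle mice, and on day 23 it had 2.23, 2.07, 0.564 and 0.939 CPM in paclitaxel mice and 0.997, 1.45, 0.291 and 0.857 CPM in vehicle mice. The test of the difference between days gave an unadjusted p of 0.00125 and an adjusted p of 0.246 in edgeR. The 10 Schwann cell genes summed to 308.5 to 364.5 CPM in paclitaxel mice and 393.7 to 836.4 CPM in vehicle mice on day 7, and to 293.4 to 427.7 CPM in paclitaxel mice and 213.2 to 546.0 CPM in vehicle mice on day 11. Their part in the result was not tested. With the muscle or the sensory neuron list as a covariate (both hold Pvalb), the day 11 log2 fold change of Gabra3 was −2.15 or −2.10.

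**Figure D4:**
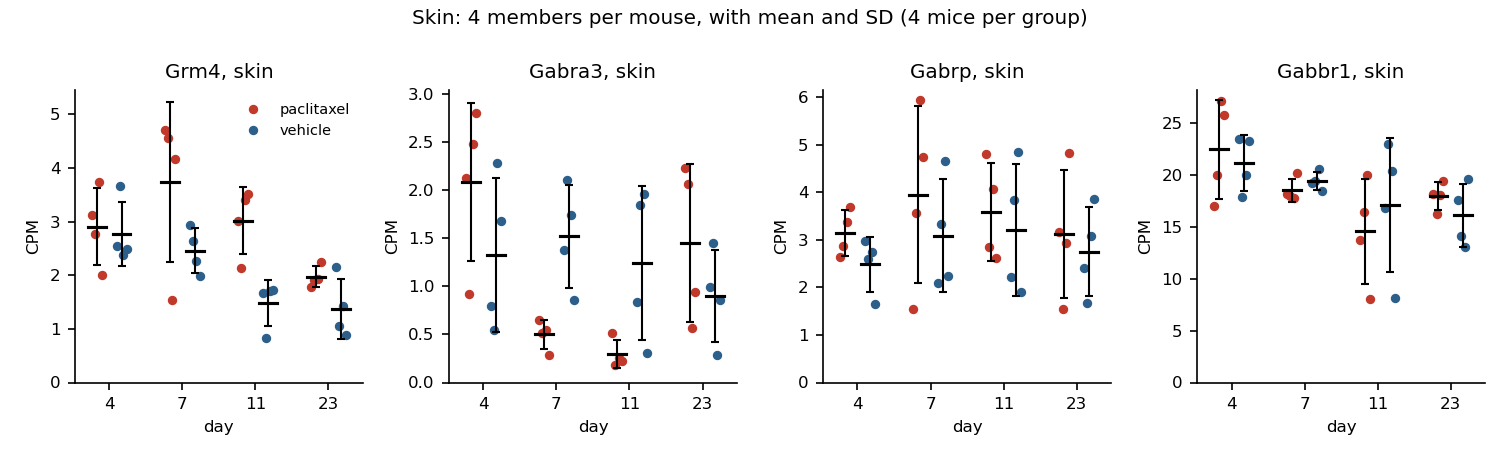
CPM of Grm4, Gabra3, Gabrp and Gabbr1 in skin by day, with 1 point per mouse, the mean as a bar and the SD as an error bar (4 mice per group, paclitaxel left of vehicle). Grm4 lies above vehicle in all 4 paclitaxel mice on day 11, Gabra3 is low in paclitaxel mice on days 7 and 11, and Gabrp and Gabbr1 overlap on each day.

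The other members of skin gave single differences that did not pass. Grin2d on day 4 had 3.02, 3.55, 5.24 and 4.81 CPM in paclitaxel mice and 7.85, 6.55, 6.33 and 5.47 CPM in vehicle mice, all paclitaxel mice below (log2 fold change −0.66, adjusted p 0.51). Grik4 on day 23 had 2.02, 1.96, 2.58 and 2.39 CPM in paclitaxel mice and 6.14, 1.67, 4.87 and 4.29 CPM in vehicle mice, with 1 vehicle mouse below all others (−0.93, adjusted p 0.197). Over the days Grid2ip was 0.46 ± 0.21 higher in paclitaxel skin on the log2 scale (SE, adjusted p 0.23).

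In skin, edgeR called 0 of the 20 members on each single day, for the difference between days and in vehicle mice across days, where it called 0.0108%, 0.00538%, 0.269% and 4.82% of all genes on days 4, 7, 11 and 23, and 0.0% and 0.877% in the last 2. At an unadjusted p under 0.05 there were 3, 3, 2 and 1 members on days 4, 7, 11 and 23, against 8.19%, 6.15%, 9.14% and 21.3% of all genes. Over the days there were 3 (19.1%), for the difference between days 1 (10.5%) and in vehicle mice 2 (16.8%). DESeq2 called 1, Gabra3, on day 11 and 1 for the difference between days, and 1, Grm4, in vehicle mice across days. The share of all genes that DESeq2 called is not given here. Paclitaxel mice lay above all vehicle mice for 1, 0, 1 and 0 members on days 4, 7, 11 and 23 (Gria4, then Grm4), against 1.89%, 2.72%, 2.96% and 6.24% of all genes. They lay below for 1, 2, 0 and 0 members (Grin2d, then Gabra3 and Gabre), against 1.93%, 3.0%, 2.3% and 5.47%.

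The genes that make, move and anchor around these receptors were taken as 3 lists, of 27 genes of synthesis, release and uptake, 28 auxiliary and scaffold genes of glutamate receptors and 12 of GABA receptors. In DRG, 26, 28 and 12 of them were tested, and edgeR called 0 in each of the 7 comparisons. DESeq2 called Slc6a6 over the days, Slc6a6 and Abat on day 11 (adjusted p 0.00907 and 0.0398), Abat and Shank2 for the difference between days (0.0405 and 0.033) and Shank2 in vehicle mice across days (0.0241), where Abat encodes the enzyme that breaks down GABA and Shank2 a postsynaptic scaffold. The share of all genes that DESeq2 called is not given here. The median log2 fold changes of the 3 lists over the days were −0.0060, 0.0026 and −0.0102, against −0.0066 for all genes. DRG carried the vesicular glutamate transporters Slc17a6 and Slc17a7 at 148.1 and 156.4 CPM in paclitaxel mice and 149.8 and 163.6 CPM in vehicle mice. The GABA-forming enzymes Gad1 and Gad2 were at 0.484 and 0.141 CPM in paclitaxel mice and 0.545 and 0.0927 CPM in vehicle mice.

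The chloride importer Slc12a2 stood at 193.6 CPM in paclitaxel DRG and 180.9 CPM in vehicle DRG, and the exporter Slc12a5 at 1.30 CPM in paclitaxel DRG and 1.17 CPM in vehicle DRG. None of these 6 passed the test. Among the partners of receptors, the AMPA auxiliary subunit Cacng7 had 117.3 CPM in paclitaxel DRG and 116.4 CPM in vehicle DRG, and Lhfpl4, which binds GABA-A receptors to their synapses, had 387.9 CPM in paclitaxel DRG and 377.1 CPM in vehicle DRG.

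The DRG gene of these lists with the smallest adjusted p over the days was Slc6a6, the taurine transporter, named here after its values were seen. On day 11 it had 82.1, 69.6, 75.2 and 65.7 CPM in paclitaxel mice and 59.1, 33.2, 34.7 and 52.5 CPM in vehicle mice. On day 7 it had 63.1, 72.7, 74.6 and 63.7 CPM in paclitaxel mice and 50.6, 57.04, 61.4 and 62.8 CPM in vehicle mice. On both days all paclitaxel mice lay above all vehicle mice, and mice 34 and 35 were the lowest 2 of day 11.

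Slc6a6 had 41.98, 76.8, 72.0 and 68.6 CPM in paclitaxel mice and 57.9, 68.1, 61.8 and 55.7 CPM in vehicle mice on day 4, where mouse 09 was the lowest. On day 23 it had 77.0, 77.5, 68.2 and 59.3 CPM in paclitaxel mice and 48.7, 52.9, 58.6 and 67.8 CPM in vehicle mice, which overlapped. Over the days its log2 fold change was 0.34 ± 0.08 (SE; 95% interval 0.17 to 0.50), with an adjusted p of 0.117 in edgeR. It passed with DESeq2 (0.0126), limma (0.00233), no filter on low counts (0.0392), the sensory neuron list as a covariate (3.49e-06) and without mice 09 and 34 (0.00722) or 09, 34 and 35 (0.0052), but not with DESeq2 size factors in edgeR (0.0983) or without the 11 libraries above 10 CPM of the keratinocyte gene Krt10 (1.0). Without those 3, its log2 fold change was 0.30 over the days and 0.39 on day 11, against 0.71 on day 11 with all mice. In skin it was at 656.0 CPM in paclitaxel mice and 650.5 CPM in vehicle mice, with a log2 fold change of 0.01 over the days.

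In skin, 19, 22 and 10 genes of the 3 lists were tested. On day 23 edgeR called 1 of each list, where it called 4.82% of all genes, and over the days 0. Slc6a12, a transporter of betaine and GABA, had 1.13, 0.891, 0.845 and 0.349 CPM in paclitaxel mice and 0.125, 0.109, 0.0364 and 0 CPM in vehicle mice, a log2 fold change of 3.51 (1.48 to 5.54, adjusted p 0.038). Its vehicle values lay near the floor, since 0.0364 CPM stood for 1 count in mouse 51, so the size of this fold change is uncertain. Kctd12b, of a family that binds GABA-B receptors, had 2.86, 2.94, 3.62 and 2.63 CPM in paclitaxel mice and 1.34, 1.63, 1.20 and 1.62 CPM in vehicle mice, a log2 fold change of 1.05 (0.42 to 1.69, adjusted p 0.0458). Both rose relative to the vehicle mice of that day, with no overlap between the groups. Those vehicle mice were low beside other days: vehicle mice of days 4, 7 and 11 had 1.28 to 4.35 CPM of Kctd12b and 0 to 1.02 CPM of Slc6a12, where 0 was 1 mouse of day 11. On day 11 the log2 fold change of Kctd12b was −0.05 and on day 4 that of Slc6a12 −0.30, and the difference of effect between days had an adjusted p of 0.547 for Kctd12b and 0.45 for Slc6a12. With each mouse left out in turn, Kctd12b passed in 11 of 32 fits and Slc6a12 in 26 of 32.

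Cnih2, which helps AMPA receptors reach the membrane, fell in paclitaxel skin relative to vehicle skin on day 23. It had 5.28, 3.83, 4.79 and 5.47 CPM in paclitaxel mice and 9.10, 7.10, 6.43 and 8.29 CPM in vehicle mice, a log2 fold change of −0.68 (−1.08 to −0.27, adjusted p 0.0428). On days 4, 7 and 11 its log2 fold changes were 0.06, 0.34 and 0.35, with intervals that held 0. The vehicle mice of day 23 were at the high end, since those of day 4 had 3.33 to 5.47 CPM, and the vehicle mice across days had an unadjusted p of 0.000967 (adjusted p 0.0663). The difference of effect between days had an adjusted p of 0.277. On that day the 16 macrophage genes summed to 375.8 to 449.4 CPM in paclitaxel mice and 133.9 to 293.1 CPM in vehicle mice. With the muscle list as a covariate the adjusted p was 0.0516 for Slc6a12, 0.103 for Kctd12b and 0.0805 for Cnih2, and with the sensory neuron list 0.191, 0.214 and 0.127. Both lists hold Pvalb. None of these 3 calls held without the filter on low counts or with the 8 libraries of that day alone. The part of the macrophage list was not tested.

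**Figure D5:**
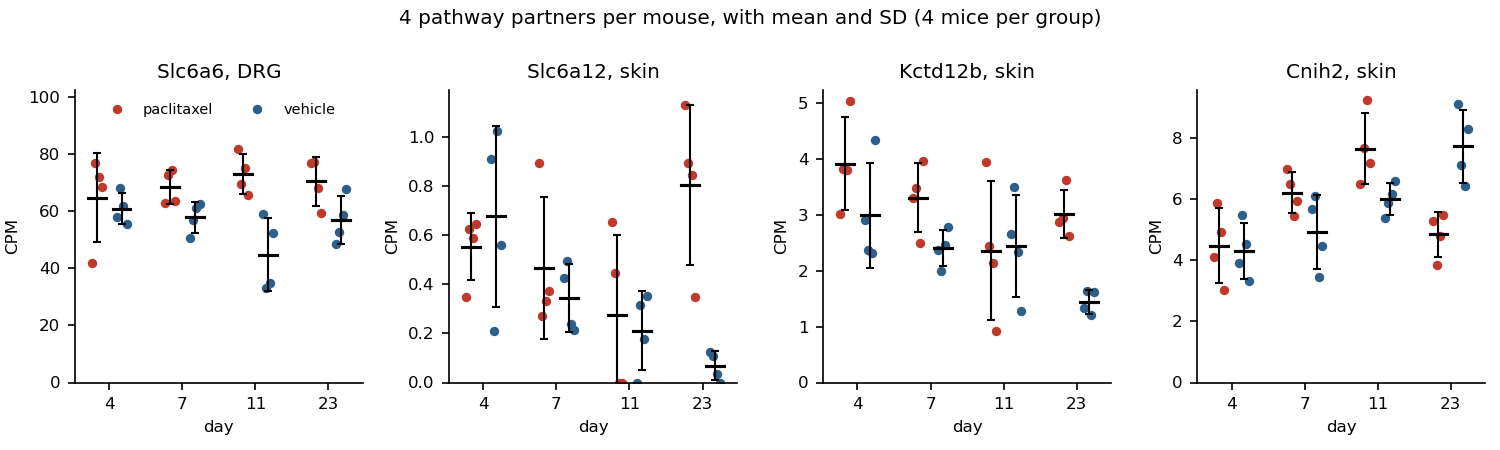
CPM of Slc6a6 in DRG and of Slc6a12, Kctd12b and Cnih2 in skin by day, with 1 point per mouse, the mean as a bar and the SD as an error bar (4 mice per group, paclitaxel left of vehicle). Slc6a6 is above vehicle in all paclitaxel mice on days 7 and 11, and the skin genes separate the groups on day 23.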

How the data were processed

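RNA of DRG and plantar skin was sequenced as single-end reads, from rRNA-depleted libraries in the methods (the labels say Oligo-dT). The authors trimmed reads with Trimmomatic 0.38, aligned them with STAR to mouse assembly m38 and counted them per gene, combining the runs of a mouse. The deposited raw tables hold 1 count per gene and mouse. The deposited normalised tables hold a signal, the counts divided by 1 size factor per mouse (DESeq2), and served for levels and overlap only. Each raw table had 28 empty columns that belonged to no sample, and 118 entries naming no gene (0.0132% of DRG and 0.0286% of skin counts) were left out.

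Each tissue's 8 groups entered 1 model in edgeR 4.0.16 (R 4.3.3) with TMM and filterByExpr. Quasi-likelihood tests compared paclitaxel with vehicle on each day, over the days and for a difference between days, and compared the days among vehicle mice. The Benjamini-Hochberg adjustment ran over all genes of the tissue (18709 in DRG, 18578 in skin), with a threshold of 0.05. Biological variation (root of the common dispersion) was 0.223 for DRG and 0.325 for skin. Spread between mice thus limits abundant genes, and counting error rare ones. The fits were also run on simulated counts, drawn with equal group means apart from a set of changed genes. That simulation held no libraries that stood apart and no varying tissue content, and its outcome is not given here. Exon lengths and coordinates came from GENCODE vM21. Mice were taken as independent. They were housed 4 to a cage, and which mice shared one is not given in the sources used here, so cage and group cannot be told apart.

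Values per mouse are given for members past the threshold, for the 3 with the smallest p over the days in each tissue, the smallest on each day and the most abundant of each class in DRG. Some members that this choice takes are not reported here, and others named with values were chosen after their values were seen. The members, lists and settings were chosen with earlier results of these data known. Other settings were DESeq2 1.42.0, its size factors within edgeR, limma 3.58.1 (voom with quality weights), no filter, the 8 libraries of a day, marker lists as covariates, DRG without mice 09 and 34 or without the 11 libraries above 10 CPM of Krt10, and leaving out each mouse. The sensory neuron covariate in skin and DRG without mice 09, 34 and 35 were added after seeing the data. Pairs of libraries within a group were compared for duplicates, and 0 of 48 pairs per tissue were identical.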

Additional observations from a re-analysis of the deposited data

Results flagged for a closer look

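In groups of 4 mice, 7 of 136 gene and group combinations had 1 mouse far from the other 3, where chance gives about 1 in 20, or 6.8. Paclitaxel mouse 09 on day 4 in DRG gave 3 of them, with Gabbr1 at 676 CPM against 456 to 468 in the others of its group, Grik1 at 516 CPM against 298 to 302, and Grm7 at 68.2 CPM against 44.8 to 48.0. That mouse also has a low mitochondrial share and a run labelled with another group. In vehicle DRG, Grik1 was at 273 CPM in mouse 07 on day 4, against 333 to 344 in the others, and Grin1 at 74.2 CPM in mouse 52 on day 23, against 109 to 114. In vehicle skin, Grm4 was at 0.838 CPM in mouse 34 on day 11, against 1.67 to 1.72, and at 3.67 CPM in mouse 06 on day 4, against 2.38 to 2.54. Without mouse 34 the log2 fold change of Grm4 in skin over the days was 0.505, its lowest value with 1 mouse left out.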

How the results depend on the processing

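No paired analysis was possible because the groups compared within a tissue share no mouse numbers. In DRG, 0 members were called in each comparison under every setting run, each mouse left out in turn included. The log2 fold change of Gabrg1 over the days was −0.15, but 0.051 with limma, 0.058 without the libraries above 10 CPM of Krt10 and 0.054 without mice 09, 34 and 35, and the cause was not tested. In skin the count of members called over the days (1) was 0 with no filter or the muscle covariate and 2 with limma (Grm4 and Grin2a), and ranged from 0 to 1 with each mouse left out. Limma called 1 member on day 4, 1 on day 23 and 2 for the difference between days, and DESeq2 1 on day 11, 1 for the difference and 1 in vehicle mice across days, where edgeR called 0. On day 23 the edgeR count ranged from 0 to 1 with each mouse left out, with Grin2a called without mouse 52. Shares of all genes called are given here only for the main edgeR fits. The counts of the other settings, for members and partner genes, thus have no background beside them. Of the partner genes in DRG (0 called), DESeq2 called 2 on day 11, 1 over the days, 2 for the difference and 1 in vehicle mice. No filter called 1 on day 11 and 1 over the days, the neuron covariate 1 on day 11, 1 on day 23 and 1 over the days, and limma, the fit without mice 09 and 34 and the fit without 09, 34 and 35 each 1 over the days. With each mouse left out the count ranged from 0 to 1 on day 11 and over the days, 1 without mouse 09 or 33. Of the partner genes in skin, the 3 called on day 23 were 0 with no filter, the 8 libraries of the day, the muscle covariate or the neuron covariate, and 7 with limma, and ranged from 0 to 5 with each mouse left out (0 without mouse 49, 57, 58 or 59, 1 without 11, 50 or 51, 5 without 52). Over the days limma and DESeq2 called 1 (edgeR 0, range 0 to 1, 1 without mouse 08, 12, 34 or 44), for the difference limma 3, and in vehicle mice DESeq2 2 (edgeR 0, range 0 to 2, 2 without mouse 06 or 12). Depth limits the rare members: those with few counts have wide intervals, and 29 in skin could not be tested.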
